A study of Arabidopsis thaliana with 18 samples.

Results

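Short introns that the annotation of Arabidopsis thaliana gives as constitutive, and whose length does not pass 80 bases, were followed in long-read transcript libraries of 6 genotypes. An intron was taken when its annotated splice junction belonged to a single gene, had at least 20 reads summed over the 18 libraries, shared neither its start nor its end with another annotated junction of that gene, and measured at most 80 bases. The rule used the annotation, the length and the summed read count, and no difference between genotypes. It gave 11669 introns of 6322 genes, out of 127555 annotated junctions in the count tables. Of those junctions, 92525 belonged to a single gene and had at least 20 reads, and 87772 of these were constitutive by the same rule at any length. The other constitutive introns were 45764 of 81 to 120 bases, 21157 of over 120 and up to 300 bases and 9182 of over 300 bases.

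The 6 genotypes had 3 biological replicates each. They were the mutant xct-2 with an XCT::XCT transgene, which the authors' comparison table calls XCT-YFP-HA, the mutant xct-2 itself, the mutant xct-1 with a transgene labelled XCT::SpXAP5, the mutant xct-1 itself, the mutant prl1-2, and the wild type Col-0. Each transgenic genotype carries the mutant allele of its parent, and the labels do not say how many independent lines it stands for. Stratification lasted 3 days, and whole seedlings then grew at 22 °C in constant light of 55 µmol m-2 s-1. Samples of about 60 mg, collected at intervals of 2 h over 24 h from day 11, were pooled, so that a library is an average over the day and over all cell types. Another label gives the seedlings as 10 days old.

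An intron is removed when the spliceosome joins its 5′ splice site, at the upstream exon, to its 3′ splice site, at the downstream exon. In a short plant intron the 5′ site, the branch point and the 3′ site lie close together, and the spliceosome needs a minimum spacing between them, so the shortest introns of a genome cluster just above a lower length limit. XCT is a member of the conserved XAP5 protein family that was first described in Arabidopsis for its part in the circadian clock, and PRL1 is a WD40-repeat protein of the MOS4-associated complex, which accompanies the spliceosome during its activation.

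The libraries held 459150 to 1046273 reads assigned to genes and 7.05 to 11.5 junction reads per gene read. Replicate 2 of xct-2, of xct-1, of prl1-2 and of Col-0 held fewer junction reads per gene read than the other 2 replicates of the same genotype, and in 3 of these 4 genotypes the lowest usage of the short introns as a share of gene reads. The labels of prl1-2, xct-2 and xct-2 XCT::XCT could be checked against the genes they name. PRL1 had 0, 0 and 0 reads in prl1-2, against 33, 26 and 10 reads in Col-0. The first exon bin of XCT had 0, 0 and 0 reads in xct-2, against 8, 15 and 2 reads in Col-0, and the whole gene had 654, 284 and 334 reads in xct-2 XCT::XCT, against 4, 8 and 4 reads in xct-2. Read counts of XCT did not check the xct-1 label, at 11, 68 and 10 in xct-1 and 8, 16 and 2 in Col-0, and the XCT::SpXAP5 transgene was not checked.

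The short introns measured 59 to 80 bases, with a median of 77 and quartiles of 74 and 79. They crowded towards the limit, since 7087 measured 76 to 80 bases, 178 measured 59 to 65 bases and 3 measured 59 bases. The lengths were uneven with respect to the reading frame, as 28.4% were a multiple of 3, against 33.7% of the longer constitutive introns. A remainder of 2 was found for 38.0% of the short introns, against 32.7% of the longer ones. Of the short introns, 952 were the first intron of their gene, 1627 the last and 117 both. Most genes had few of them, with 1 in 3430 genes, 4 or more in 590 genes and at most 14 in 1 gene. The gene with 14 was ILA (AT1G64790), a translational activator protein with HEAT repeats, followed by TOR (AT1G50030), the growth-regulating protein kinase, and AT1G53440 with 12 each. Together the short introns carried 17778478 junction reads, which was 12.2% of all junction reads. The median gene behind a short intron had 419 reads over the 18 libraries, against 445 for introns of 81 to 120 bases and 377 for introns of over 300 bases.

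Usage was counted in 2 ways. The first, called gene usage here, is the reads on a junction as a percent of the reads of its gene, capped at 100%. The second, called flanking usage, divides the junction reads by the smaller read count of the 2 exon bins that border the intron, and so leaves out reads that end before they reach the intron. In Col-0 the label constitutive held for nearly all short introns with enough reads. Over the 6665 short introns with at least 50 flanking reads in Col-0, flanking usage had a median of 99%, and 5855 introns (87.8%) reached at least 95%. It was under 80% for 131 introns (1.97%) and under 50% for 34 (0.51%). Among those 131, an unannotated junction shared a splice site with 27 introns (20.6%), against 3.34% of the 6534 introns at 80% or more. An annotated exon bin lay over 22.1% of the 131, against 1.38% of the 6534. The remaining 77 of the 131 had neither, and for these a retained intron and a rarer junction outside the catalogue cannot be told apart. The 131 also included more last introns (23.7% against 11.2%) and more introns of at most 65 bases (6.87% against 1.27%).

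The lowest values in Col-0 belonged to introns whose annotated junction was seldom used, and these were chosen after their values were seen. The last annotated intron of TIC (AT3G22380, chr3:7918872-7918944, + strand, 73 bases), the clock gene TIME FOR COFFEE, was used in 1.44%, 1.00% and 1.00% of the gene's reads in Col-0, with 1597, 697 and 3498 reads. It was used in 0.517% to 1.04% in xct-2 and in 0.842% to 1.46% in prl1-2. CHB3 (AT4G34430, chr4:16465062-16465136, + strand, 75 bases), a SWI3-type subunit of a chromatin remodelling complex, was likewise at 0.00%, 2.41% and 2.09% in Col-0, and AT3G08680, AT1G53800, TRM3 and AT3G12640 each held an intron with a Col-0 mean between 1.06% and 2.33%. AT4G31210 (chr4:15166235-15166294, + strand, 60 bases) differed from these, because an unannotated junction took the place of the annotated one. Its annotated junction was used in 2.86%, 4.48% and 7.08% of reads in Col-0, while an unannotated junction whose 3′ site lay 12 bases downstream averaged 84.9% in xct-2 and 79.7% in Col-0, a difference that was not called (edgeR quasi-likelihood test, Benjamini-Hochberg adjusted p = 0.95).

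Summed over all short introns, flanking usage was lowest in prl1-2 and next lowest in xct-2. It averaged 97.73% in xct-2 XCT::XCT, 96.97% in xct-2, 97.39% in xct-1 XCT::SpXAP5, 97.46% in xct-1, 94.50% in prl1-2 and 97.93% in Col-0, with SDs of 0.0663 to 0.422 points over 3 libraries. The libraries of prl1-2 lay at 94.41%, 94.96% and 94.12%, those of xct-2 at 96.85%, 96.97% and 97.11%, and those of Col-0 at 97.95%, 98.08% and 97.77%. No library of prl1-2, xct-2, xct-1 or xct-1 XCT::SpXAP5 reached the lowest Col-0 library, whereas 1 of the 3 xct-2 XCT::XCT libraries did. Whole seedlings were sampled, so a lower usage in every cell and a different mix of cells cannot be told apart. As a share of gene reads the order was less sharp, with 94.12% ± 0.818 in xct-2, 91.72% ± 0.764 in prl1-2 and 94.79% ± 0.931 in Col-0 (SD, n = 3 each). The ranges of xct-2 and Col-0 then overlapped and those of prl1-2 and Col-0 did not.

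**Figure D1:**
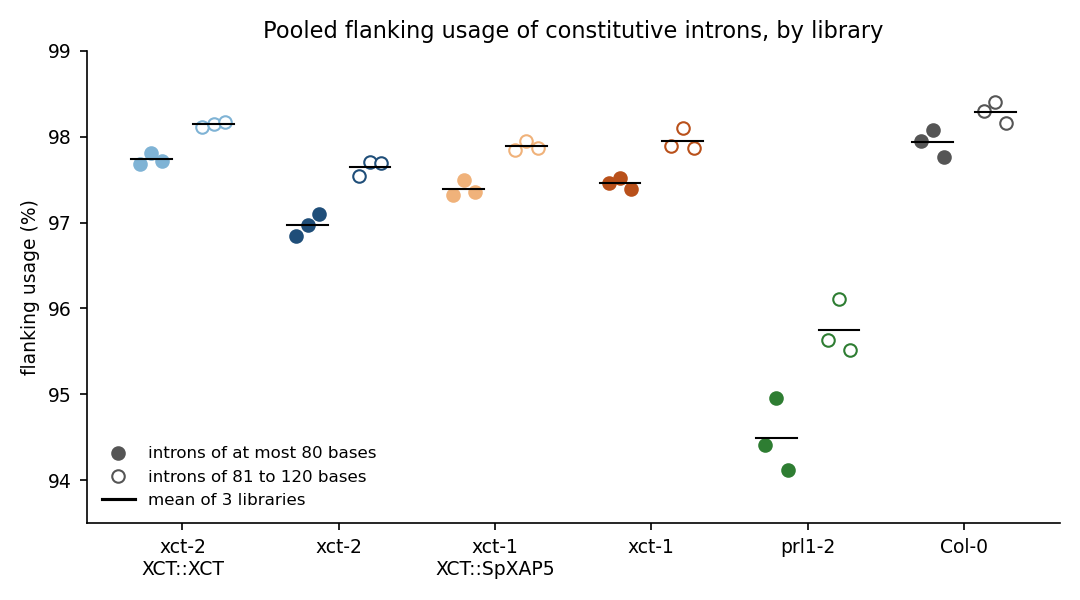
Flanking usage in percent, pooled over all short introns (filled points) and over constitutive introns of 81 to 120 bases (open points), for each of the 18 libraries by genotype, with lines at the mean of 3 libraries. In every library the short introns lie below the longer ones, and the distance is largest in prl1-2.

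Short introns were used slightly less than introns of 81 to 120 bases in every library, and the distance differed between genotypes. Flanking usage of the short introns minus that of the 81 to 120 base introns was -0.41 points (SD 0.0628) in xct-2 XCT::XCT, -0.67 (0.0797) in xct-2, -0.50 (0.0368) in xct-1 XCT::SpXAP5, -0.49 (0.0766) in xct-1, -1.25 (0.124) in prl1-2 and -0.35 (0.0403) in Col-0. The 3 prl1-2 libraries ran from -1.39 to -1.15 points and the 3 xct-2 libraries from -0.74 to -0.59, outside the Col-0 range of -0.40 to -0.32. The ranges of xct-2 XCT::XCT and Col-0 overlapped. In the 5791 genes that held introns of both lengths, the distance was -0.69 points in xct-2, -1.47 in prl1-2 and -0.38 in Col-0. The genes are the same there, but each intron is divided by the reads of its own flanking exon bins. Introns of over 120 and up to 300 bases had 96.97% in xct-2, 94.76% in prl1-2 and 97.65% in Col-0. Against that class the short introns were higher in Col-0, level in xct-2 and lower in prl1-2. Introns of over 300 bases were lower than both, at 95.93% in xct-2, 92.48% in prl1-2 and 96.84% in Col-0. These pooled values are given without a test.

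Within the class, usage fell off towards the shortest introns in all 6 genotypes. Introns of 59 to 65 bases had a flanking usage of 90.54% ± 0.31 in xct-2, 85.73% ± 1.84 in prl1-2 and 93.46% ± 0.97 in Col-0 (SD, n = 3 each). In those introns the libraries lay at 90.41%, 90.31% and 90.89% in xct-2, at 84.44%, 87.84% and 84.91% in prl1-2, and at 93.84%, 94.18% and 92.35% in Col-0. The 3 groups did not overlap. At 66 to 70 bases the means were 95.80%, 91.83% and 96.94% for the same genotypes, at 71 to 75 bases 96.31%, 93.81% and 97.47%, and at 76 to 80 bases 97.55%, 95.30% and 98.35%. Set against Col-0, introns of 59 to 65 bases thus differed by -7.73 points in prl1-2 and by -2.92 points in xct-2. The share of flanking reads without the junction was 6.54% there in Col-0, 9.46% in xct-2 and 14.27% in prl1-2. At 76 to 80 bases that share was 1.65% in Col-0, 2.45% in xct-2 and 4.70% in prl1-2. As a multiple of the Col-0 share, the rise was therefore no larger at 59 to 65 bases than at 76 to 80. Nothing changed abruptly at the limit itself. The 1618 introns of exactly 80 bases had 97.65% in xct-2, 95.42% in prl1-2 and 98.33% in Col-0, and the 1733 introns of 81 bases, just outside, had 97.69%, 95.67% and 98.52%. The shortest introns came from genes of all read depths. In genes of up to 1000 reads the 125 introns of 59 to 65 bases had 84.08% in xct-2, 78.05% in prl1-2 and 88.54% in Col-0, and in genes of more than 1000 reads the other 53 had 91.90%, 87.59% and 94.39%.

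**Figure D2:**
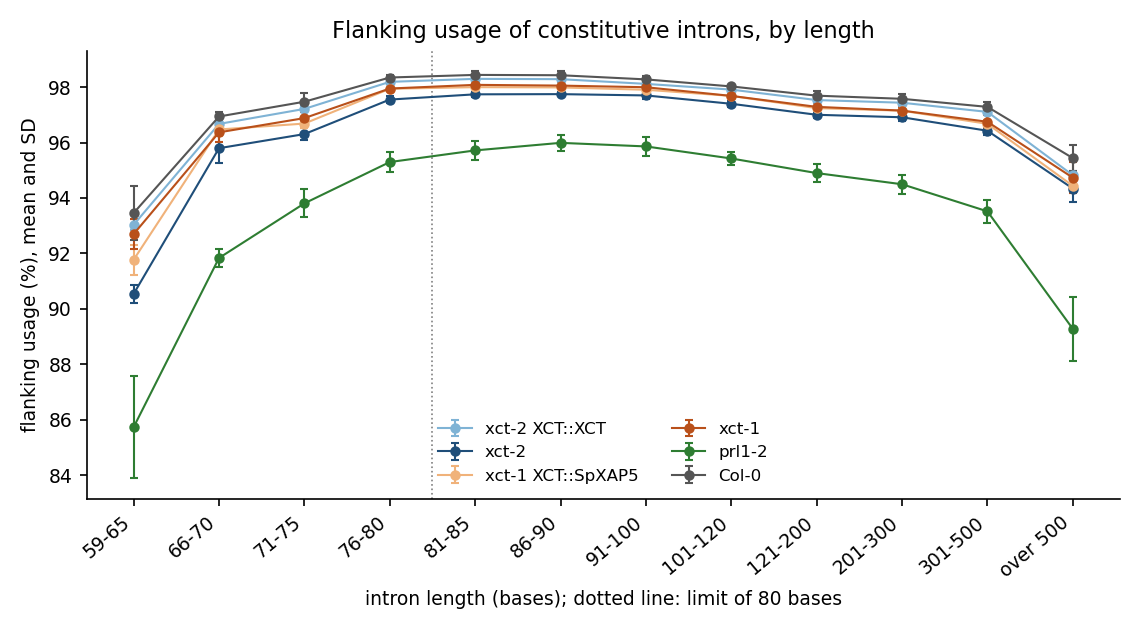
Flanking usage in percent (mean and SD of 3 libraries) of constitutive introns against intron length in bases, 1 line per genotype. The dotted line marks the limit of 80 bases. All lines drop to its left, with prl1-2 lowest at 85.73% for 59 to 65 bases, and they drop again at the longest introns.

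The place of the intron and the depth of its gene also moved with usage. First introns had 94.74% ± 0.52 in xct-2, 91.38% ± 0.53 in prl1-2 and 96.25% ± 0.28 in Col-0, and the 9207 internal ones had 97.42%, 95.12% and 98.31%. The 1510 last introns of genes with several introns had 93.58% ± 1.35 in xct-2, 90.03% ± 1.58 in prl1-2 and 94.88% ± 1.94 in Col-0, so that the spread between replicates there was larger than the distance of xct-2 to Col-0. The 117 introns that were the only one of their gene had 92.33% in xct-2, 86.44% in prl1-2 and 94.04% in Col-0. In genes of up to 100 reads usage was 92.56% in xct-2, 85.98% in prl1-2 and 94.66% in Col-0, and in genes of over 5000 reads it was 97.89%, 96.31% and 98.48%. A lower level in thinly read genes was therefore present in every genotype, Col-0 included. The 518 short introns overlapped by another junction or an exon bin had 91.34% in xct-2, 91.10% in prl1-2 and 94.45% in Col-0, against 97.83%, 95.01% and 98.50% for the 11151 with no such overlap.

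In xct-2, 141 short introns had lower gene usage than in Col-0 and 11 had higher usage. Usage of single introns was tested with edgeR's quasi-likelihood model on junction reads and other gene reads, with p-values adjusted by Benjamini-Hochberg over all 97952 junctions, and a call is an adjusted p under 0.05. Of all junctions tested, 0.749% were called lower and 0.589% higher, so 1.21% of the short introns were called lower, against 0.758% of introns of 81 to 120 bases and 0.479% of those of over 300 bases. The 141 introns lay in 135 genes, and their median usage was 80.6%, 79.1% and 83.7% in the xct-2 libraries, against 98.3%, 98.0% and 98.3% in the Col-0 libraries. At 59 to 65 bases 1 of 178 introns (0.562%) was called lower, against 1.27% at 66 to 70 bases, 1.36% at 71 to 75 and 1.14% at 76 to 80. With flanking usage 209 short introns were called lower and 1 higher, against 1.20% and 0.0702% of all junctions tested that way, and 122 of the 141 were among the 209, while none of the 11 rises was called. Large losses were rare. Of 5981 short introns with at least 10 flanking reads in each library, 67 (1.12%) lost at least 20 points of flanking usage, and the median change was -0.26 points. Such losses were found in 0.582% of introns of 81 to 120 bases, 0.667% of those of over 120 and up to 300 bases and 0.846% of those of over 300 bases. The median log2 odds change was -0.27 over the short introns and -0.16 over all junctions. Without replicate 1 of Col-0 the number of short introns called in xct-2 was 98 in place of 152, and DESeq2 called 86, with 83 of them among the 152. The rises moved more than the falls when 1 library was left out. There were 98 rises and 130 falls without replicate 3 of Col-0, 56 and 122 without replicate 2 of xct-2, and a single rise without replicate 2 of Col-0.

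The largest loss was in CAT2 (AT1G58030), a cationic amino acid transporter. Its 74-base intron 5 of 13 (chr1:21466438-21466511, - strand) was used in 14.3%, 29.0% and 27% of gene reads in xct-2, against 98.6%, 100% and 96.3% in Col-0, with 37 to 143 gene reads per library. It was at 52.7%, 42.9% and 39.6% in xct-1, at 41.7%, 22.7% and 50% in xct-1 XCT::SpXAP5, at 97.6%, 100% and 95.5% in xct-2 XCT::XCT, and at 100%, 100% and 95.3% in prl1-2. The xct-2, xct-1 and xct-1 XCT::SpXAP5 libraries all lay below every other library. The log2 odds change was -7.58 (SE 0.675) in xct-2 with adjusted p = 7.40e-26, and -6.17 (SE 0.656) in xct-1 with adjusted p = 2.07e-17 (edgeR, n = 3 each). The missing reads were on an unannotated junction with the same 5′ site and a 3′ site 20 bases downstream, which held 83.3%, 67.7% and 73.0% of gene reads in xct-2 and none of 326 gene reads in Col-0.

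NINJA (AT4G28910), the adaptor between jasmonate-response repressors and the co-repressor TOPLESS, followed with its last intron (chr4:14264716-14264788, - strand, 73 bases). Usage was 23.1%, 33.9% and 19.4% in xct-2, against 89.6%, 84.6% and 86.4% in Col-0, a log2 odds change of -4.20 (SE 0.613) with adjusted p = 2.38e-09 by edgeR. It averaged 48.5% ± 3.82 in xct-1 and 87.4% ± 4.74 in xct-2 XCT::XCT. No library of xct-2 or xct-1 overlapped Col-0. The unannotated 3′ site lay 12 bases downstream here and held 61.5% in xct-2, 46.1% in xct-1 and 6.25% in Col-0.

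STN7 (AT1G68830), the thylakoid kinase that phosphorylates light-harvesting proteins during state transitions, used its 80-base intron 3 of 9 (chr1:25874622-25874701, - strand) in 50%, 38.3% and 52.7% of reads in xct-2 and in 62.2%, 52.8% and 37.5% in xct-1, against 96.2%, 95.6% and 100% in Col-0. The libraries of both mutants lay below Col-0 and overlapped each other. Usage was 51.3%, 50.9% and 51.9% in xct-1 XCT::SpXAP5 and 94.2%, 92.2% and 91.7% in prl1-2. By edgeR the adjusted p was 3.95e-13 for xct-2 and 3.36e-11 for xct-1. The alternative 3′ site of STN7 lay only 3 bases downstream and took 49.7% of its reads for xct-2, 44.4% for xct-1 and 1.13% for Col-0.

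DFD (AT3G55630, chr3:20638203-20638282, + strand, 80 bases), a folylpolyglutamate synthetase, had 23.5%, 18.8% and 21.6% in xct-2, against 81.8%, 85.2% and 68.8% in Col-0 (edgeR adjusted p = 4.08e-09). Its unannotated 3′ site was 12 bases downstream, with 72.6% of DFD reads for xct-2 and 7.89% for Col-0. UBP13 (AT3G11910, chr3:3768334-3768410, - strand, 77 bases), a ubiquitin-specific protease, had close replicates, at 33.1%, 35.5% and 32.9% in xct-2, against 94.7%, 91.8% and 95.5% in Col-0 (adjusted p = 6.64e-21). Its unannotated 3′ site was 30 bases downstream.

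In the other 5 introns with the largest losses in xct-2 no unannotated junction shared a site. TDP1 (AT5G15170), a DNA repair enzyme, had 30.0%, 55.6% and 66.7% in xct-2, against 100% in each Col-0 library, but only 10 to 24 gene reads per library (edgeR adjusted p = 0.000101). Mean usage was 29.0% in xct-2 and 77.9% in Col-0 for AT5G56850, 46.8% and 93.2% for AT4G01610, a cathepsin B-like protease, and 49.6% and 95.3% for AT1G48430, a dihydroxyacetone kinase. The first intron of SCPL11, a serine carboxypeptidase-like gene, averaged 31.6% in xct-2 and 78.2% in Col-0 (adjusted p = 0.0148), and this call was lost when replicate 1 or 3 of xct-2 or replicate 1 or 2 of Col-0 was left out (adjusted p of 0.061, 0.0527, 0.208 and 0.107). Groups did not overlap in any of these 10 introns, which the naming rule required.

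Unannotated junctions gave a second readout of the same introns, and in xct-2 they followed a pattern of position. Over all short introns, 276 unannotated junctions at 251 introns shared exactly 1 of the 2 splice sites. They entered with at least 20 reads summed over the 18 libraries, so a junction could enter through the genotypes in which it is high, and such a junction had to differ. Where the 3′ site differed and lay downstream, inside the next exon, 84 of 173 junctions were called higher in xct-2, 67 in xct-1 and 3 in prl1-2. Among all 4007 unannotated junctions tested, 11.8% were called higher in xct-2, 9.21% in xct-1 and 0.799% in prl1-2. Where the 3′ site lay upstream or the 5′ site differed, 0 of 25 and 0 of 81 junctions were called higher in xct-2 or in xct-1 by edgeR. DESeq2 called 0 of these too, and at an unadjusted p under 0.05 edgeR gave 2 and 1 of them in xct-2 and 1 and 1 in xct-1. Of the 173 downstream junctions 37 had no read in Col-0, and all 37 were among the 84. A count of at least 20 reads within xct-2 XCT::XCT, prl1-2 and Col-0 alone, a limit chosen after the values were seen, was met by 109 of the 173 and by all 25 and 81 of the others. Of those 109, 21 (19.3%) were called higher in xct-2 and 9 (8.26%) in xct-1. Numbers called by distance carry the same limit of entry. At 11 to 40 bases downstream 66 of 96 junctions were called higher in xct-2 and 58 in xct-1, at 1 to 10 bases downstream 9 and 2 of 58, and at over 40 bases downstream 9 and 7 of 19. The 84 junctions higher in xct-2 lay at a median of 19 bases (quartiles 14 and 31, nearest 3, farthest 135), and 34 of them (40.5%) kept the reading frame by a multiple of 3. The other 89 lay at a median of 9 bases, and 17 of them (19.1%) were a multiple of 3.

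Shares of reads carry the same limit, because a junction could enter through the genotypes in which it is high. Shares over junctions that entered through other genotypes alone are not given here. The 96 junctions at 11 to 40 bases held 7.74%, 8.37% and 7.51% of the reads pooled over them and their introns in the xct-2 libraries, against 1.24%, 1.16% and 1.46% in Col-0. Their mean share was 1.33% ± 0.117 in xct-2 XCT::XCT, 7.88% ± 0.445 in xct-2, 4.42% ± 0.137 in xct-1 XCT::SpXAP5, 4.27% ± 0.403 in xct-1, 1.75% ± 0.0910 in prl1-2 and 1.29% ± 0.158 in Col-0 (SD, n = 3 each). The libraries of xct-2, xct-1 and xct-1 XCT::SpXAP5 lay above all others, xct-2 lay above the other 2, and those 2 overlapped. The prl1-2 libraries, at 1.65% to 1.82%, lay just above Col-0. They also lay above it at 1 to 10 bases downstream (2.11% to 2.34%, against 1.70% to 1.85%) and at over 40 bases downstream (2.28% to 3.06%, against 1.66% to 2.25%). The same held for the 4 junctions with a 3′ site 11 to 40 bases upstream (2.82% to 4.80%, against 1.01% to 2.38%). In the other classes of upstream 3′ sites and of 5′ sites prl1-2 and Col-0 overlapped. At over 40 bases the 19 junctions held 5.71% ± 0.797 in xct-2, 3.11% ± 0.409 in xct-1 and 1.95% ± 0.296 in Col-0, and neither mutant overlapped Col-0. At 5′ sites that lay 1 to 10 bases upstream the share was 1.70% in xct-2, 1.56% in prl1-2 and 1.54% in Col-0, and the 3 genotypes overlapped.

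**Figure D3:**
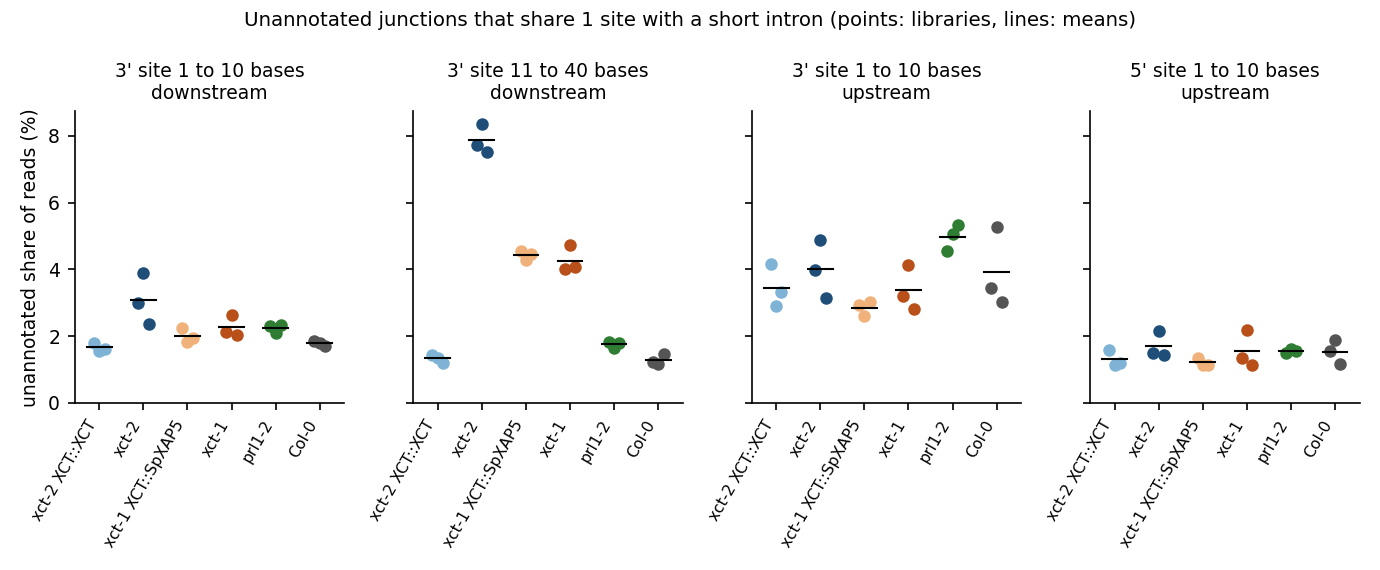
Share of reads, in percent, on unannotated junctions that share 1 splice site with a short intron, for 4 classes of site that differs and its distance, by genotype. Points are libraries and lines are means of 3. Junctions entered on reads summed over the 18 libraries, so the shares carry the limit of entry given in the text. At 3′ sites 11 to 40 bases downstream xct-2 averages 7.88%, xct-1 XCT::SpXAP5 4.42% and xct-1 4.27%, against 1.29% in Col-0, and in the 2 upstream classes the xct-2 and xct-1 libraries overlap Col-0.

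Both readouts met in the same introns for part of the list. Of the 162 short introns with an unannotated downstream 3′ site, 45 (27.8%) were called lower in xct-2, and of the 11418 with no unannotated junction at either site, 95 (0.832%) were. The 162 carry the same limit of entry, since an unannotated site could enter through xct-2 reads that are missing from its intron. These shares were therefore partly fixed by entry, and their difference is no separate support. In the 45, median usage was 79.2% for xct-2, 87.5% for xct-1, 92.7% in prl1-2 and 96.8% in Col-0, and the unannotated junctions held a median of 15.2% in xct-2, 7.26% in xct-1 and 0.00% in Col-0. In the 95, median usage was 81.4% for xct-2, 90.8% for xct-1, 93.6% in prl1-2 and 98.3% in Col-0. Of the 95, 90 had no other junction and no exon bin over them, and for these a retained intron and junctions outside the catalogue cannot be told apart. Some unannotated junctions rose on introns whose own usage stayed near complete. In PPC2 (AT2G42600, chr2:17737235-17737314, - strand, 80 bases), a phosphoenolpyruvate carboxylase with 33972 gene reads, the site 24 bases downstream held 1.19% of the reads from xct-2, 0.397% of those from xct-1 and none of those from Col-0 (edgeR adjusted p = 2.80e-17 in xct-2), while the annotated junction averaged 97.2% ± 1.31 in xct-2 and 98.2% ± 1.2 in Col-0 and was not called on gene usage.

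In xct-1, 27 short introns fell and 2 rose, against 0.169% and 0.398% of all junctions tested, so 0.231% of the short introns were called lower and 0.184% of those of 81 to 120 bases. On flanking usage 54 were called lower and 2 higher, against 0.309% and 0.0238% of all junctions, and 22 of the 27 were among the 54. Of the 27, 14 (51.9%) had an unannotated downstream 3′ site, which carries the same limit of entry. Introns called in xct-1 had a median usage of 65.3% in xct-2, 81.5% in xct-1 and 98.3% in Col-0, values that share the same Col-0 libraries. CAT2, NINJA, UBP13, DFD, STN7 and AT1G48430 (53.1% ± 3.13 in xct-1 and 95.3% ± 4.92 in Col-0) were among the 10 named falls. HSP60-2 (AT2G33210), a mitochondrial chaperonin whose loss was smaller, was at 86%, 80% and 78.6% in xct-1, against 100% in each Col-0 library (adjusted p = 0.000224, edgeR), with a site 32 bases downstream at 17% in xct-1 and none in Col-0. AT5G47490 had 72.2%, 75.8% and 81% in xct-1, against 96.9%, 100% and 96.1% in Col-0 (adjusted p = 4.62e-06), with a site 27 bases downstream at 17.5%. AT1G02080 averaged 69.4% ± 14.6 in xct-1 and 92.8% ± 2.87 in Col-0 (adjusted p = 0.000694), ABCC13, an ABC transporter, 74.7% and 95% (0.00388), and AT5G16610 69.8% and 94.3% (0.0322). The last 3 calls were lost when 1 library was left out, while the log2 odds change stayed negative. The call in AT1G02080 was lost without replicate 3 of Col-0 (log2 odds change -1.97, adjusted p = 0.0708 by edgeR), that in ABCC13 without replicate 3 of xct-1 (-2.41, 0.0518), and that in AT5G16610 without any 1 of 4 libraries (-3.00 to -2.26, 0.133 to 1). Without replicate 1 of Col-0 16 short introns were called in xct-1 in place of 29. Without replicate 3 of Col-0 20 rose and 27 fell, and without replicate 2 of xct-1 20 rose and 22 fell.

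In prl1-2 losses were many and mostly small. By gene usage 802 short introns of 668 genes fell and 10 rose, against 5.27% and 0.144% of all junctions tested, so 6.87% of the short introns were called lower, against 5.24% of introns of 81 to 120 bases and 6.88% of those of over 300 bases. By flanking usage 1697 fell (14.5%) and 1 rose, against 12.6% and 0.0378% of all junctions. Of the 802, 779 were also called by flanking usage, and none of the 10 rises was. The share of short introns called lower was 6.18% at 59 to 65 bases, 8.31% at 66 to 70, 7.36% at 71 to 75 and 6.45% at 76 to 80. Flanking usage was below Col-0 in 88.9% of 5754 short introns with at least 10 flanking reads in each library, with a median difference of -2.93 points (quartiles -6.08 and -1.08). The median was -2.11 points for introns of 81 to 120 bases, -2.17 for those of over 120 and up to 300 bases and -2.98 for those of over 300 bases. The median log2 odds change was -1.13 over the short introns and -0.89 over all junctions. Losses of at least 20 points were found in 95 short introns (1.65%). They were found in 0.71% of introns of 81 to 120 bases, 1.53% of those of over 120 and up to 300 bases and 4.46% of those of over 300 bases. Called introns had a median gene usage of 89.1%, 91.2% and 89.1% in the prl1-2 libraries, against 98.9%, 98.9% and 99% in Col-0. Few of the called introns had an unannotated partner, as 22 of the 802 (2.74%) had an unannotated downstream 3′ site and 773 had no unannotated junction at either site. The number called was 290 without replicate 1 of Col-0, 334 without replicate 3 of prl1-2 and 467 without replicate 1 of prl1-2, in place of 812. DESeq2 called 228 in prl1-2, 224 of them among the 812, and the model with the gene count as an offset called 11.

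**Figure D4:**
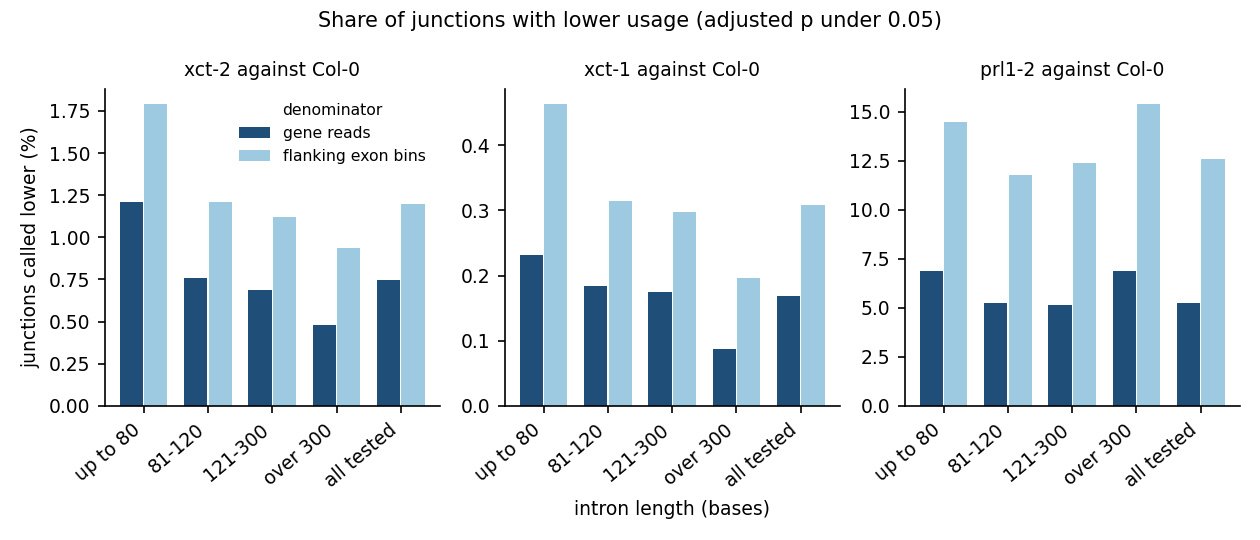
Percent of constitutive introns of 4 length classes, and of all junctions tested, called lower than in Col-0 (edgeR adjusted p under 0.05) in xct-2, xct-1 and prl1-2. Dark bars divide by gene reads and light bars by the flanking exon bins. Short introns reach 1.21% in xct-2 and 6.87% in prl1-2 by gene reads, and the vertical scales differ between panels.

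The largest loss in prl1-2 was in VLN4 (AT4G30160), an actin-bundling villin, in its 80-base intron 8 of 25 (chr4:14755742-14755821, + strand). Usage was 46.6%, 47.9% and 50.9% in prl1-2, against 88.6%, 93.3% and 89.8% in Col-0, with 164 to 606 gene reads per library. The log2 odds change was -3.32 (SE 0.439) with adjusted p = 2.52e-10 (edgeR, n = 3 each). The same intron had 88.5%, 85.5% and 89.8% in xct-2 and 90.3%, 92.3% and 86.3% in xct-1, so the prl1-2 libraries lay apart from all others.

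AT3G06880 (chr3:2173196-2173262, - strand, 67 bases) had 55.1%, 55.3% and 53.4% in prl1-2, against 94.0%, 91.3% and 94.5% in Col-0, a log2 odds change of -3.59 (SE 0.482) with adjusted p = 5.06e-10 by edgeR. It was at 95.2%, 92.9% and 94.7% in xct-2. The prl1-2 replicates stayed within 2 points of each other and far below every other library. ACX5, a peroxisomal acyl-CoA oxidase, averaged 63.1% ± 8.05 in prl1-2 and 97.2% ± 2.50 in Col-0 (adjusted p = 0.00133), and the first intron of IDD2, an INDETERMINATE DOMAIN zinc-finger protein, 64.9% ± 11.1 and 99.1% ± 1.60 (adjusted p = 0.000796).

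The other named introns, in AT2G44500, AT5G11350, AT3G21650, AT1G79710, AT3G57800 and AT5G21100, averaged 46.1% to 61.3% in prl1-2 and 78.4% to 98.4% in Col-0. Their adjusted p-values ran from 3.62e-05 to 0.024 (edgeR). In these 10 introns the groups did not overlap, which the naming rule required. The call in AT3G57800 was lost without any 1 of 3 libraries (log2 odds change -2.55 to -2.34, adjusted p of 0.0886 to 0.165), and that in AT5G21100 without any 1 of 5 (-2.27 to -1.93, 0.0528 to 0.153). The single rise that met the rule, in AT1G16800, was 96.5% in prl1-2 and 77.7% in Col-0 by gene usage (adjusted p = 0.043) and 100% in both genotypes by flanking usage, and the gene usage call was lost without any 1 of 4 libraries (0.0848 to 0.31).

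**Figure D5:**
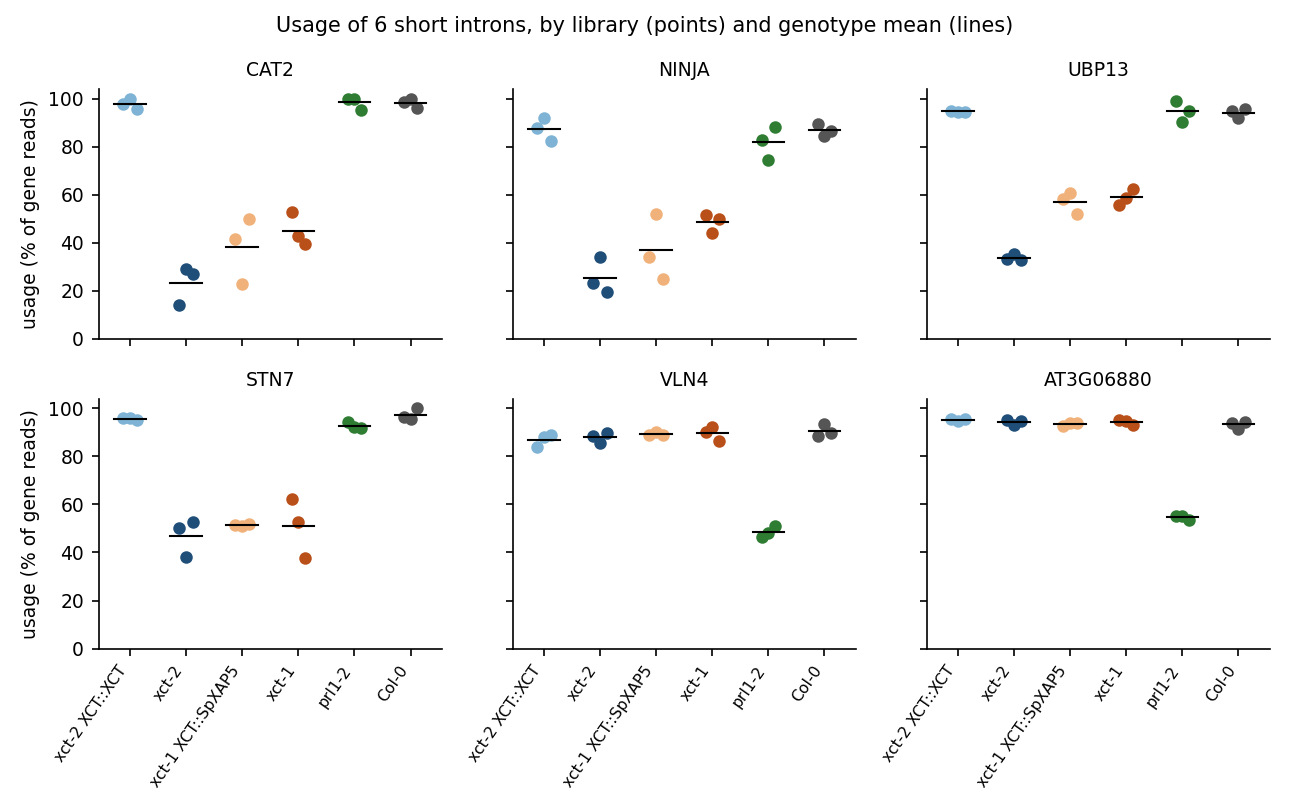
Gene usage in percent of 6 short introns in each of the 18 libraries (points), with genotype means (lines). CAT2, NINJA, UBP13 and STN7 are low in the 3 genotypes xct-2, xct-1 XCT::SpXAP5 and xct-1. VLN4 and AT3G06880 are low in prl1-2, at 48.5% and 54.6% on average against 90.5% and 93.3% in Col-0.

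The XCT::XCT transgene went with usage near that of Col-0. Against xct-2, 141 short introns rose and 5 fell in xct-2 XCT::XCT, against 0.857% and 0.559% of all junctions tested, and by flanking usage 193 rose and 2 fell, against 1.19% and 0.0961%. Against Col-0, 12 rose and 1 fell by gene usage, against 0.0807% and 0.0102% of all junctions, and 1 rose and 2 fell by flanking usage, against 0.00216% and 0.0151%. The gene usage count depended on single Col-0 libraries, with 100 rises and 5 falls without replicate 3 of Col-0 and 1 of each without its replicate 2. CAT2 averaged 97.7% ± 2.27 in xct-2 XCT::XCT and 23.4% ± 8 in xct-2 (log2 odds change 6.94, SE 0.652, adjusted p = 3.12e-23 by edgeR). The fall by gene usage against Col-0 was in the first intron of AT1G66760 (chr1:24902359-24902436, + strand, 78 bases), a MATE-type efflux transporter, with 70.0%, 58.3% and 63.0% in xct-2 XCT::XCT and 67.6%, 64.0% and 65.6% in xct-2, against 94.6%, 95.8% and 94.1% in Col-0. Its call in xct-2 XCT::XCT (adjusted p = 0.0469) was lost by flanking usage (0.17) and without any 1 of 5 libraries (0.0672 to 0.818). The 2 falls by flanking usage were in ACA1, a calcium-transporting ATPase, with 73.3%, 72.2% and 75.5% in xct-2 XCT::XCT, against 93.8%, 98.2% and 82.1% in Col-0 (edgeR adjusted p = 1.63e-06), and in TIC, with 97.3%, 97.3% and 97.4% in xct-2 XCT::XCT, against 99.1%, 98.9% and 98.5% in Col-0 (0.02). ACA1 and TIC were chosen here after their values were seen, and the xct-2 libraries stood at 73.3%, 76.6% and 80.7% for ACA1. The 5 falls against xct-2 were 3 neighbouring introns of ACC2, a plastid acetyl-CoA carboxylase, and 1 each in CRK11, a receptor-like kinase, and SCAR2, of the SCAR/WAVE complex. The ACC2 introns averaged 21.7% in xct-2 XCT::XCT and 68.8% to 69.1% in xct-2 by gene usage but 100% and 97.3% to 99.4% by flanking usage, which was not called. SCAR2 was at 98.9% in xct-2 XCT::XCT and 100% in xct-2, and CRK11, at 81.6% and 100%, was the only one of the 5 called by flanking usage too (0.0324). The calls in CRK11 and SCAR2 were lost without replicate 1 of xct-2 (0.0715 and 0.157), among others.

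The XCT::SpXAP5 transgene went with values close to those of its parent xct-1. Against xct-1, 24 short introns rose and 0 fell by gene usage, against 0.145% and 0.0112% of all junctions, and by flanking usage 0 rose and 1 fell, against 0% and 0.0194%. An unadjusted p under 0.05 was found for 271 short introns by flanking usage (2.32%, against 2.90% of all junctions) and for 457 by gene usage (3.92%, against 4.54%). DESeq2 called none of the 11669, all of which it gave an adjusted p. The 24 rises lay in 14 genes, and their median usage was 97.7%, 82.7% and 98.9% in the xct-1 libraries, so replicate 2 of xct-1 alone was low. Without it 2 were called, and without replicate 3 of xct-1, 80 were. Those that met the naming rule, in TTN8, EMB2369, SVR3, LARP6b, ARF2, AT5G12150 and AGY1, averaged 98.6% to 100% in xct-1 XCT::SpXAP5 and 89.8% to 98.6% in xct-1, and none was called by flanking usage. Without replicate 2 of xct-1 all but the TTN8 call were lost (0.223 to 1).

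Against Col-0, 40 short introns fell and 76 rose in xct-1 XCT::SpXAP5, against 0.293% and 1.01% of all junctions tested. By flanking usage 65 fell and 0 rose, against 0.473% and 0.0335%. Of the 40 falls 27 were called by flanking usage too, and of the 76 rises 0 were. The 76 rises lay in 41 genes, up to 8 in 1 gene, and in genes with a median of 20 junctions, against 10 for all short introns. Their median usage was 97.0%, 98.6% and 97.7% in the xct-1 XCT::SpXAP5 libraries, against 84.7%, 64.8% and 97.5% in Col-0. Col-0 replicates 1 and 2 were the low ones, and the same 2 libraries held 8.81 and 7.93 junction reads per gene read, against 11.5 in Col-0 replicate 3 and 9.96 to 11.1 in xct-1 XCT::SpXAP5. With junction reads per gene read as a covariate, 7 short introns rose and 47 fell in xct-1 XCT::SpXAP5 against Col-0, in place of 76 and 40. The number called was 33 without replicate 2 of Col-0, 52 without replicate 1 of Col-0, 254 without its replicate 3, and 46 and 52 without replicates 2 and 3 of xct-1 XCT::SpXAP5, in place of 116. The named falls beside those in CAT2, NINJA, UBP13, DFD and STN7 were AT5G56850, HSP60-2, SEC14, AT1G48430 and AT1G66760, at 39.8%, 74.2%, 62.8%, 66.3% and 67.4% in xct-1 XCT::SpXAP5, against 77.9%, 100%, 98.4%, 95.3% and 94.8% in Col-0. All of these but HSP60-2 were lost without replicate 1 of Col-0 (0.0802, 0.0791, 0.067 and 0.266 for the other 4, in that order).

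Among 28 genes of the circadian clock, 11 held 18 short introns, and 1 of the 18 (5.56%) fell in xct-2, in xct-1 and in xct-1 XCT::SpXAP5, against 0.749%, 0.169% and 0.293% of all junctions tested. In each case it was intron 3 of 12 of TIC (chr3:7914203-7914277, + strand, 75 bases). It was used in 76.1%, 72.5% and 77.0% of reads in xct-2 and in 84.1%, 77.3% and 83.3% in xct-1, against 93.1%, 81.1% and 95.3% in Col-0, with at least 697 gene reads per library. The xct-2 libraries lay below Col-0, while those of xct-1 overlapped the low Col-0 replicate 2 (edgeR adjusted p = 4.05e-06 in xct-2 and 0.0212 in xct-1). DESeq2 called 1 of the 18 in xct-2, and 0 of the 15 to which it gave an adjusted p in xct-1 and in xct-1 XCT::SpXAP5. In the authors' deposited tables of xct-2 and xct-1 over Col-0 this intron had no adjusted p under 0.05. For this TIC intron flanking usage stood at 79.9% (xct-2), 86.7% (xct-1) and 98.8% (Col-0). An unannotated 3′ site 18 bases downstream took 17.5% of TIC reads in xct-2, with 12.2% in xct-1 XCT::SpXAP5 and 11.4% in xct-1, against 0.226% in Col-0. It took 1.51% in xct-2 XCT::XCT and 0.344% in prl1-2. In xct-2 XCT::XCT the intron was lower than in Col-0 by flanking usage, at 97.3% and 98.8% on average (adjusted p = 0.02), and was not called by gene usage. In prl1-2 0 of the 18 were called by gene usage with edgeR, nor were any of the 13 to which DESeq2 gave an adjusted p, and 1 had an unadjusted p under 0.05. By flanking usage 3 of the 18 fell in prl1-2 (16.7%, against 12.6% of all junctions), namely the TIC intron (97.9% in prl1-2 and 98.8% in Col-0) and introns 2 and 3 of GI (95.7% and 95.8% in prl1-2, 99.9% and 99.7% in Col-0), the clock gene GIGANTEA. An intron of the clock gene LHY (AT1G01060, 73 bases) was used in 99.5% to 100% of its reads in xct-2, 98.0% to 100% in prl1-2 and 98.8% to 100% in Col-0, and was not called.

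Of 44 genes of splicing factors, 22 held 36 short introns. None was called in xct-2 or xct-1 by either measure of usage with edgeR, nor were any of the 20 in xct-2 and 17 in xct-1 to which DESeq2 gave an adjusted p, and 3 in xct-2 and 0 in xct-1 had an unadjusted p under 0.05 by gene usage. In prl1-2 5 fell (13.9%, against 5.27% of all junctions and 6.87% of all short introns) and 1 rose by gene usage, and 6 fell by flanking usage (16.7%, against 12.6% and 14.5%). DESeq2 called 0 of the 17 to which it gave an adjusted p in prl1-2. The falls were in introns 2 and 8 of U1-70K (AT3G50670), a protein of the U1 particle that binds 5′ splice sites, at 89.5%, 92.2% and 84.5% in prl1-2 against 97.7%, 95.9% and 99% in Col-0 for the first of them (edgeR adjusted p = 0.0179) and at 96.6% and 99.8% on average for the other (0.0398). Intron 11 of PTB3 (AT1G43190), a polypyrimidine-tract-binding protein, had 88.6%, 95.1% and 89.3% in prl1-2, against 99.1%, 100% and 100% in Col-0 (0.00581). Introns 8 and 9 of RS40 (AT4G25500), an arginine/serine-rich splicing factor, averaged 60.6% in prl1-2 and 95.6% and 97.9% in Col-0, on 7 to 33 gene reads per library (0.0272 and 0.0249). The rise was in AT4G38780, a PRP8-like gene with 147 reads in all, and was not called by flanking usage. The sixth fall by flanking usage was intron 21 of SUS2 (AT1G80070), a PRP8 protein of the spliceosome's core, at 96.5% in prl1-2 and 98.7% in Col-0.

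Of 38 genes of photosystem and light-harvesting proteins, 6 held 1 short intron each, and none was called in xct-2 or xct-1 by edgeR or DESeq2, with 1 and 0 at an unadjusted p under 0.05. In prl1-2 2 of the 6 fell by gene usage, where 5.27% of all junctions did, and 3 by flanking usage, where 12.6% did. DESeq2 gave all 6 an adjusted p in prl1-2 and called 0 of them. LHCA4 (AT3G47470, chr3:17494110-17494188, - strand, 79 bases), a photosystem I antenna protein, had 90.7%, 94.0% and 93.1% in prl1-2, against 98.3%, 98.0% and 98.2% in Col-0 (edgeR adjusted p = 0.00636). LHCB3 (AT5G54270, chr5:22038810-22038873, + strand, 64 bases), a photosystem II antenna protein, had 92.5%, 95.2% and 92.9% in prl1-2, against 98.1%, 97.8% and 98.5% in Col-0 (0.0215). The groups did not overlap in either. LHCB5 had a flanking usage of 98.4% in prl1-2 and 99.7% in Col-0 (0.00376).

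Introns picked for read depth or for length gave mixed values. The 5 short introns with the most gene reads were in GLDP1 (AT4G33010), a subunit of the photorespiratory glycine decarboxylase, and GLU1 (AT5G04140), a ferredoxin-dependent glutamate synthase. In GLDP1, intron 7 was used in 98.6%, 98.6% and 98.8% of 3778 to 6328 gene reads in prl1-2, against 99.4%, 99.3% and 99.6% of 5017 to 8755 reads in Col-0. This difference of under 1 point was called (edgeR log2 odds change -1.18, SE 0.268, adjusted p = 0.00123), and the groups did not overlap. The other 4 were not called by gene usage in prl1-2. Intron 5 of GLDP1 averaged 98.4% ± 0.18 in prl1-2 and 98.6% ± 0.136 in Col-0, and the 3 introns of GLU1 averaged 88.1%, 91.4% and 96.3% in prl1-2 and 88.0%, 90.4% and 95.7% in Col-0. By flanking usage the last of these GLU1 introns was called, at 99.3% in prl1-2 and 99.6% in Col-0 (adjusted p = 0.00301). The 59-base introns of CNGC3, a cyclic-nucleotide-gated channel, and AT3G23080 had 349 and 217 gene reads in all and were not called in any comparison. Of the 60-base introns, that of AT5G43745 had 82.5%, 78% and 78.4% in prl1-2, against 96.0%, 100% and 99.2% in Col-0 (adjusted p = 4.56e-06), and that of ATGRIP, a Golgi protein, had 80% to 90.7% in prl1-2 and 93.2% to 94.3% in Col-0 and was not called. The 80-base introns of LOS1, a translation elongation factor, and CEV1, a cellulose synthase, averaged 93.2% and 98.1% in prl1-2 and 94.9% and 97.5% in Col-0 and were not called by gene usage. The 2 genes ILA and TOR, which held many short introns, had medians near complete usage in these 3 genotypes. Over the 14 short introns of ILA the median flanking usage was 99.2% in xct-2, 98.4% in prl1-2 and 99.6% in Col-0, and over the 12 of TOR it was 98.8%, 98.6% and 99.4%. AT1G53440 held medians of 98.8% in xct-2, 96.8% in prl1-2 and 99.2% in Col-0, but its lowest intron was at 63.2% in xct-2, 67.3% in prl1-2 and 58.1% in Col-0.

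The authors' deposited comparison tables, which tested fewer of the short introns, were read for the same class. With the adjusted p-values as deposited, 157 of 8911 short introns had a negative ratio in the authors' deposited table of xct-2 over Col-0 at an adjusted p under 0.05 (1.76%, against 1.17% of all junctions in it), and none had a positive one. In the authors' deposited table of xct-1 over Col-0 30 of 8929 were negative (0.336%, against 0.279%) and 1 positive (0.0112%, against 0.452%). In the authors' deposited table of prl1-2 over Col-0 871 of 5478 were negative (15.9%, against 12.8%) and 1 positive (0.0183%, against 0.0966%). The authors' deposited table of xct-2 XCT::XCT over Col-0 had 1 negative among 9539 (0.0105%, against 0.0141%). That of xct-1 over xct-1 XCT::SpXAP5 had 0 among 5384, and 0 among all its 43968 junctions.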

How the data were processed

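Counts were deposited by the authors as 1 table per library, with whole-number read counts for genes, exon bins, annotated junctions and unannotated junctions, per the file headers. Alignment with minimap2 2.17 and the build TAIR10 are from the submitters' processing notes. Neither the counting program nor the origin of the unannotated catalogue is given in the sources used here. The authors also deposited tables of comparisons with a p-value and adjusted p-value per feature, and with a log2 ratio of which only the sign was used. Coordinates are TAIR10, counted from 1. Symbols came from a RefSeq table of TAIR10.1, used for names only, in which 11664 of 11669 short introns matched. Sequences of introns and splice sites were not used here.

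Each junction gave 2 counts per library, junction reads and other gene reads (at least 0). Junction reads exceeded gene reads in 6.22% of the values of the short introns, by a median of 3 reads or 40.2% of the gene count. edgeR 4.0.16 in R 4.3.3 fitted a quasi-likelihood model to all 18 libraries, in which each library had its own level and each genotype its own usage. All 97952 junctions with at least 20 reads were tested and p-values were adjusted by Benjamini-Hochberg over all of them, so all 11669 short introns entered. A log2 change is a log2 odds ratio. The model was also run on simulated data, with changes placed only in junctions of higher read depth and incomplete usage. That run does not show how the model performs on short introns with few reads or near-complete usage. Contrasts against Col-0 share its libraries. DESeq2 1.42.0, flanking exon bins (92618 junctions), a gene-count offset, filters and left-out replicates were alternatives. The p-values measure the spread between replicates labelled as independent, and only counting error is covered by read depth. Replicates of a genotype were unequally alike. Over genes, chi-square per degree of freedom was 1.684 between replicates 2 and 3 of xct-1 XCT::SpXAP5 and 2.77 between replicates 1 and 3 of xct-2. It was 34.62 between replicates 2 and 3 of xct-2 and 34.55 between replicates 2 and 3 of Col-0. The cause was not tested.

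Introns were named when called, with groups that did not overlap and at least 10 gene reads in each of the 6 libraries: the 10 with the largest difference in mean usage per contrast and up to 5 in the direction with fewer calls, the 5 with the most gene reads, the 5 shortest and the 5 nearest the limit with at least 200 gene reads, and members of 3 gene lists (called ones and the 2 with the most gene reads). Exceptions are marked in the text. The members and lists were chosen with earlier results of these data known.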

Additional observations from a re-analysis of the deposited data

How the results depend on the processing

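No call among the named introns became a call in the opposite direction under any alternative run. The mean usage of the ACC2 introns did change direction, since by flanking usage it was higher in xct-2 XCT::XCT than in xct-2, without a call. Of 62 pairs of a named intron and a contrast, 21 lost their call when 1 library was left out, 14 of 61 with a filter on other gene reads, 16 of 62 with flanking exon bins, 15 of the 55 to which DESeq2 gave an adjusted p, and 36 of 62 with the gene count as an offset.

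The number of short introns called moved more than this. In xct-2 against Col-0 it was 152 as reported, 86 with DESeq2, 23 with the gene count as an offset, 249 with junction reads per gene read as a covariate, 100 without overlapped introns and 63 at up to 75 bases. In xct-1 against Col-0 it was 29, and 15 with DESeq2, 56 with flanking exon bins, 5 with the offset, 58 with the covariate, 13 without overlapped introns and 9 at up to 75 bases. In prl1-2 against Col-0 it was 812, and 228 with DESeq2, 1698 with flanking exon bins, 11 with the offset and 348 at up to 75 bases. In xct-2 XCT::XCT against Col-0 it was 13, and 0 with DESeq2, 0 with at least 20 other gene reads, 6 with at least 50 junction reads, 3 with flanking exon bins, 0 with the offset and 4 at up to 75 bases. In xct-1 XCT::SpXAP5 against Col-0 it was 116, and 14 with DESeq2, 28 with at least 20 other gene reads, 65 with flanking exon bins, 8 with the offset, 54 with the covariate and 41 at up to 75 bases. In xct-2 XCT::XCT against xct-2 it was 146, and 91 with DESeq2, 31 with the offset, 92 without overlapped introns and 55 at up to 75 bases. For xct-1 XCT::SpXAP5 over xct-1 it was 24, and 0 with DESeq2, 0 with at least 20 other gene reads, 11 with at least 50 junction reads, 1 with flanking exon bins, 0 with the offset, 2 with the covariate and 8 at up to 75 bases. The shorter limit and the exclusion of overlapped introns count fewer introns by construction, and the cause of the other shifts was not tested.

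Leaving out 1 library gave 98 to 228 calls in xct-2, 16 to 47 in xct-1 and 290 to 669 in prl1-2. It gave 2 to 105 in xct-2 XCT::XCT and 33 to 254 in xct-1 XCT::SpXAP5, each against Col-0, 107 to 137 in xct-2 XCT::XCT against xct-2, and 2 to 80 in xct-1 XCT::SpXAP5 over xct-1. The lowest counts in xct-2, xct-1 and prl1-2 came without replicate 1 of Col-0.

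Same-numbered libraries of different genotypes were not treated as pairs, because in none of the 7 comparisons did the correlation of usage deviations pass 0.1 for all 3 numbers. By gene usage it was -0.0689, 0.479 and 0.462 for xct-2 with Col-0, 0.0805, 0.635 and 0.609 for xct-1 with Col-0, and 0.00822, 0.292 and 0.0971 for prl1-2 with Col-0. With a replicate block the counts were 158 in xct-2, 31 in xct-1, 752 in prl1-2, 12 in xct-2 XCT::XCT and 123 in xct-1 XCT::SpXAP5 against Col-0, 145 in xct-2 XCT::XCT against xct-2, and 32 in xct-1 XCT::SpXAP5 over xct-1, and 4 of the 62 named calls were lost. With the replicate block and the covariate together they were 241 in xct-2, 53 in xct-1 and 54 in xct-1 XCT::SpXAP5 against Col-0, and 1 in xct-1 XCT::SpXAP5 over xct-1.

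Pooled gene usage was 94.89%, 94.12%, 95.08%, 94.53%, 91.72% and 94.79% for xct-2 XCT::XCT, xct-2, xct-1 XCT::SpXAP5, xct-1, prl1-2 and Col-0. In the same order of genotypes it was 97.73%, 96.97%, 97.39%, 97.46%, 94.50% and 97.93% with flanking exon bins, 95.84%, 95.31%, 96.04%, 95.57%, 92.59% and 95.82% without overlapped introns, and 97.55%, 96.90%, 97.57%, 97.10%, 93.93% and 97.55% as the median over introns. At up to 75 bases it moved by more than the spread to 94.48% for xct-1 XCT::SpXAP5 and to 90.75% for prl1-2. Leaving out 1 library gave 94.61% to 95.08%, 93.76% to 94.57%, 94.89% to 95.21%, 94.27% to 94.94%, 91.49% to 92.16% and 94.35% to 95.28%. The share on unannotated 3′ sites 11 to 40 bases downstream was 7.628% to 8.058% in xct-2, 4.035% to 4.401% in xct-1, 1.717% to 1.803% in prl1-2 and 1.199% to 1.352% in Col-0, an alternative chosen after seeing the data. Leaving out a library does not remove the limit of entry from this share.

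Depth limits the introns of thinly read genes: 5493 of the 11669 had at least 10 gene reads in every library. DESeq2 gave an adjusted p to 6404, 5913 and 5662 of them in xct-2, xct-1 and prl1-2 against Col-0. An intron with no call is not shown to be unchanged.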
